A study of Mus musculus with 2 samples.

Results

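The genes described here are 10 members of the BCL2 family, which control whether a cell survives or dies by apoptosis: Bcl2, Bcl2l1, Bcl2l2, Mcl1, Bbc3, Pmaip1, Bid, Bmf, Bax and Bak1. They were chosen by name, from 36980 gene symbols in the deposited table, with earlier results of these data known. All of their listed transcripts were taken, 37 in number. The RNA came from 2 cultures of pro-B cells, the early precursors of B cells, which had been sorted from mouse bone marrow by flow cytometry and had spent 4 days in medium holding 5 ng/µl of the growth factor interleukin 7 (IL-7). The first was Setdb1 Δ/Δ, with the histone H3 lysine 9 methyltransferase gene Setdb1 deleted, and the second was Setdb1 C/C, with undeleted alleles. Both cultures carried a bcl2 transgene, so the whole comparison is between cells that already hold an added survival gene. The promoter and species of that transgene, the way in which Setdb1 was deleted, and the strain and age of the animals were not given in the sources used here. Each genotype had 1 library, so the differences below stand without a test and carry no p-value.

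The family works at the outer membrane of mitochondria. BAX and BAK, the effectors, form pores there that release cytochrome c and start the caspase cascade. BCL-2, BCL-XL (Bcl2l1), BCL-W (Bcl2l2) and MCL-1 are survival proteins that hold effectors and death signals in check. The BH3-only proteins PUMA (Bbc3), NOXA (Pmaip1), BID and BMF sense damage or loss of support and act by binding the survival proteins, and some of them by activating the effectors directly. In mouse B cell precursors, survival depends on signals of the IL-7 receptor, and MCL-1 and BCL-2 are among the proteins through which it acts.

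Levels are given in RPKM (reads per kilobase of transcript per mega-read of depth), a unit that allows genes of different length to be compared. The transcript of highest mean RPKM stands for a gene unless another is named. The libraries held about 193 M reads in Δ/Δ and 171 M reads in C/C (M, mega), as recovered from the RPKM values, and intervals below are exact 95% intervals for counting error alone. A gene is called higher or lower where log2((Δ/Δ + 0.5) / (C/C + 0.5)) was at least 1 or at most -1, that is 2-fold on this scale. Measured genes are the 12556 that reached 1 RPKM in either library, all 10 members among them. Setdb1 itself measured 12.6 RPKM in Δ/Δ and 17.0 RPKM in C/C, a value over whole transcripts that cannot show how complete the deletion was. The libraries also differed in sex markers. Xist measured 23.7 RPKM in Δ/Δ and 0.0940 RPKM in C/C, and the 4 Y-linked genes examined lay between 0 and 0.0170 RPKM in Δ/Δ and between 5.37 and 22.3 RPKM in C/C, so genotype and sex cannot be told apart.

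In Δ/Δ, 3 members were lower and 0 were higher. The lower ones were the survival gene Bcl2l1 and the BH3-only genes Bbc3 and Bmf, so RNA of opposite roles was lower in the same library. That is 3 of 10 members, or 30.0%, where 6.66% of all measured genes were lower and 6.28% were higher by the same rule. Because the members were chosen with earlier results known, these shares describe the list and do not test it. The median log2 ratio of the 10 members was -0.75, against -0.09 over all measured genes. At a 1.5-fold rule 6 members were lower, with Bax, Bcl2 and Mcl1 added, and Bid was higher, where 16.7% of measured genes were lower and 12.6% higher. At a 4-fold rule Bbc3 and Bcl2l1 remained lower, where 1.86% of measured genes were lower and 1.75% higher. The 7 members within the 2-fold rule ran from -0.93 (Bax) to 0.71 (Bid). In RNA of a whole culture, fewer cells of a type and less RNA per cell cannot be told apart.

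**Figure D1:**
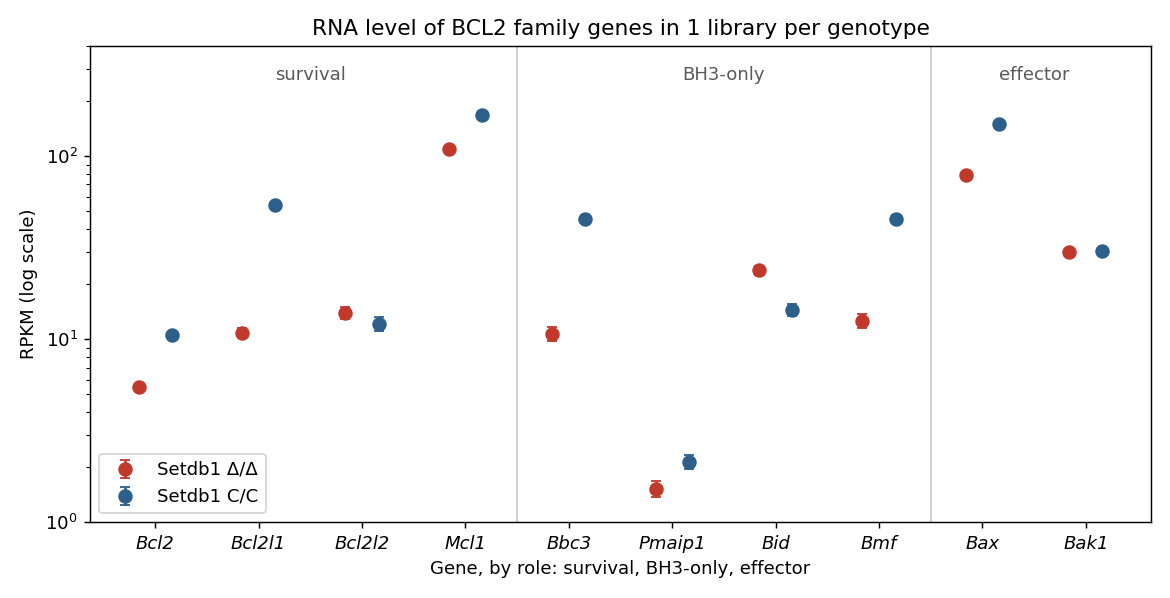
Each point is the RPKM of a gene (log axis) in the Setdb1 Δ/Δ library (red, left of each pair) or the Setdb1 C/C library (blue, right), and the bars are 95% counting intervals. Bcl2l1, Bbc3 and Bmf lie at 10.7 to 12.6 RPKM in Δ/Δ and at 45.3 to 53.8 RPKM in C/C, while Bak1 is level at 30.0 and 30.3 RPKM.

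Among the survival genes, Bcl2l1 showed the largest difference. It measured 10.9 RPKM in Δ/Δ and 53.8 RPKM in C/C, from 2020 and 8830 reads, and was thus 4.95-fold lower in Δ/Δ (interval 4.62 to 5.31). Of all measured genes, 1.40% had a log2 ratio as low as its -2.26 or lower. The row behind these values is Bcl2l1-209, a non-coding transcript model that shares much of the last exon, so the coding transcripts were read as well. Bcl2l1-201, which encodes the full BCL-XL protein, measured 9.03 RPKM in Δ/Δ and 43.0 RPKM in C/C, and Bcl2l1-202, with the same coding sequence and another first exon, measured 8.78 RPKM in Δ/Δ and 41.6 RPKM in C/C. All 9 listed transcripts were lower in Δ/Δ, with ratios of Δ/Δ to C/C between 0.202 and 0.248.

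Mcl1 had the highest level of the 10 in both libraries on its short model, but lay below Bax in both on its longest one. Mcl1-202, a model made almost wholly of coding sequence, measured 109.7 RPKM in Δ/Δ and 168 RPKM in C/C, a ratio of 0.654 (interval 0.636 to 0.672) that does not pass the rule. Mcl1-201, which adds the long 3′ untranslated region, measured 62.0 RPKM in Δ/Δ and 75.1 RPKM in C/C, a ratio of 0.825. The difference between these models is taken up below. Bcl2l2 measured 13.9 RPKM in Δ/Δ and 12.1 RPKM in C/C (ratio 1.15, interval 1.02 to 1.29), and its 4 transcripts had ratios from 1.004 to 1.40. Its values are uncertain, because the gene model Gm20521, on the same strand, shares 594 of its exonic bases and measured 35.5 RPKM in Δ/Δ and 43.4 RPKM in C/C. Bcl2 measured 5.47 RPKM in Δ/Δ and 10.5 RPKM in C/C, a ratio of 0.521 (interval 0.501 to 0.543) and a log2 ratio of -0.88, short of the rule. Its 1 listed transcript, Bcl2-201, is 7191 bases long, and reads of the transgene and of the cells' own gene are not separated on it. The species of the transgene was not given, so how much of its RNA counts on that row is not known. This limit also holds for the rank, sums and ratios below that use Bcl2.

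The BH3-only genes went different ways. Bbc3, whose protein PUMA binds the survival proteins broadly and whose gene is a classical p53 target, measured 10.7 RPKM in Δ/Δ and 45.3 RPKM in C/C, from 999 and 3747 reads, and was 4.25-fold lower in Δ/Δ (interval 3.85 to 4.70). Its 3 transcripts had ratios from 0.235 to 0.257. Bmf, whose protein is held at the dynein light chain DYNLL2 until released, measured 12.6 RPKM in Δ/Δ and 45.6 RPKM in C/C, from 909 and 2908 reads, and was 3.62-fold lower in Δ/Δ (interval 3.26 to 4.03). All 8 Bmf transcripts had ratios between 0.260 and 0.310, among them the coding transcripts Bmf-201 (9.38 RPKM in Δ/Δ, 31.8 RPKM in C/C) and Bmf-202 (9.21 RPKM in Δ/Δ, 29.7 RPKM in C/C). The row that stands for Bmf is Bmf-203, a non-coding model. On the rows that stand for them Bbc3 and Bmf were alike in level within each library. The longest coding transcript of Bbc3, Bbc3-201, measured 10.2 RPKM in Δ/Δ and 39.7 RPKM in C/C, so in C/C it stood above Bmf-201. Both genes were past the rule on every transcript.

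Bid, whose protein links death receptors to mitochondria once caspase-8 has cut it, was the member with the highest ratio. It measured 23.8 RPKM in Δ/Δ and 14.4 RPKM in C/C (ratio 1.65, interval 1.51 to 1.82), a log2 ratio of 0.71 that does not pass the rule. That row, Bid-205, is a retained-intron model. The coding transcript Bid-201 measured 22.1 RPKM in Δ/Δ and 14.2 RPKM in C/C, and the ratios of the 5 transcripts ran from 1.48 to 1.65. The model Bid-204 also overlaps 628 bases of Bcl2l13 on the opposite strand, and the other 4 models had ratios over the same span. Pmaip1, a p53 target like Bbc3, was the least abundant member at 1.52 RPKM in Δ/Δ and 2.14 RPKM in C/C, from 800 and 997 reads (ratio 0.709, interval 0.620 to 0.810).

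The effectors differed from each other. Bax measured 78.7 RPKM in Δ/Δ and 150.3 RPKM in C/C, a ratio of 0.524 (interval 0.508 to 0.540), with a log2 ratio of -0.93 just short of the rule. Bak1 measured 30.0 RPKM in Δ/Δ and 30.3 RPKM in C/C, a ratio of 0.990 (interval 0.953 to 1.03), and all 3 of its transcripts had that same ratio to 3 decimals. That row, Bak1-201, is a nonsense-mediated decay model. The coding transcript Bak1-202 measured 24.9 RPKM in Δ/Δ and 25.1 RPKM in C/C. The sign of the Bak1 difference depends on the scaling, since its log2 ratio of -0.01 became 0.08 after centring on the median of all genes. Parts of Bak1 overlap Ggnbp1 on the opposite strand, by at most 177 bases of 1 transcript.

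**Figure D2:**
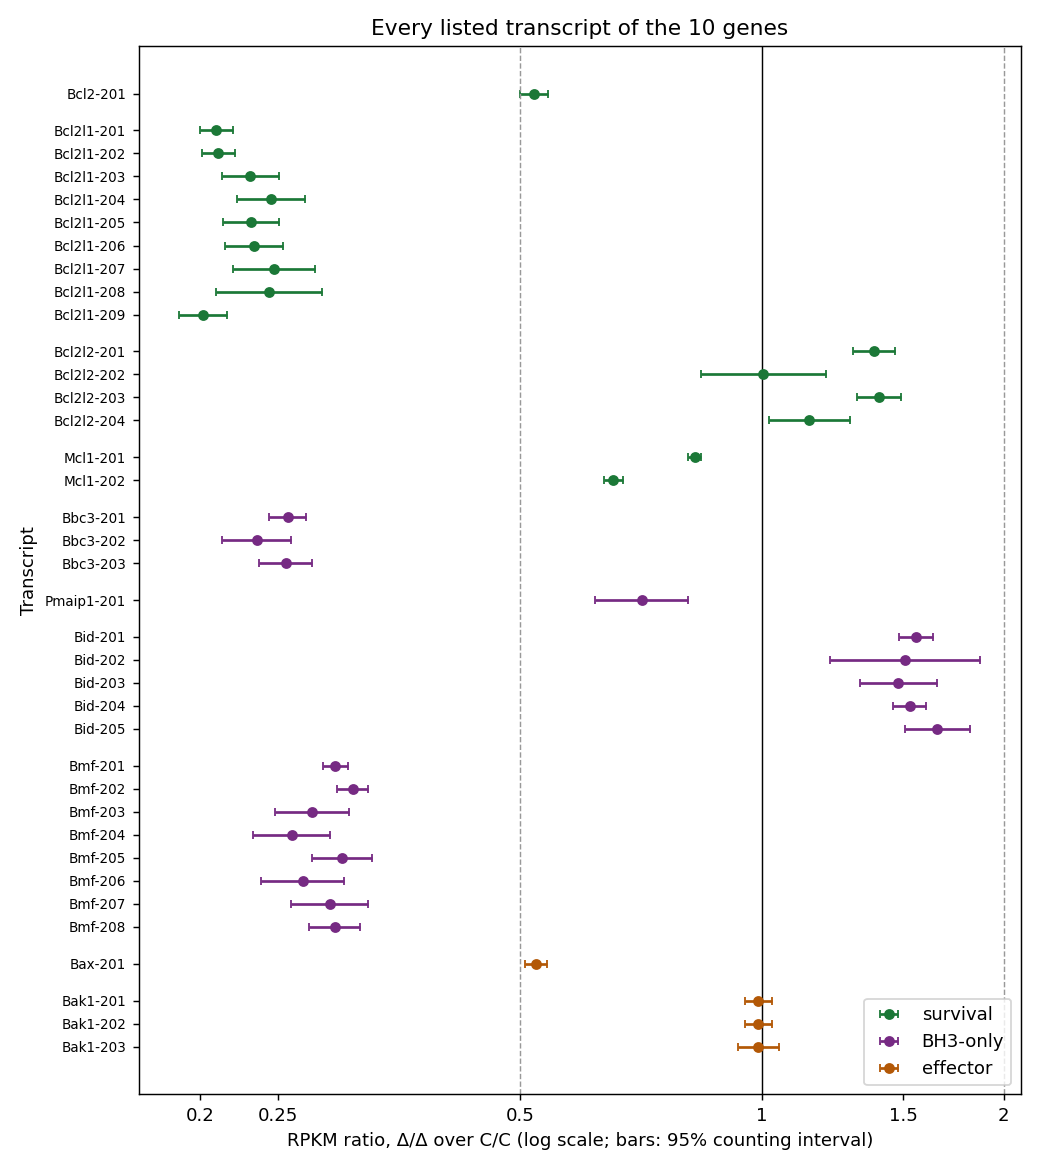
Each point is the ratio of RPKM in Δ/Δ to RPKM in C/C (log axis) for 1 listed transcript, coloured by role, with its 95% counting interval, and the dashed lines stand at ratios of 0.5 and 2. The 20 transcripts of Bcl2l1, Bbc3 and Bmf lie between 0.202 and 0.310, and the other 17 lie above 0.5.

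Over all 37 transcripts, 20 were lower, 0 were higher and 17 were within the rule. The 20 are the transcripts of Bcl2l1, Bbc3 and Bmf, none left out, where 4.93% of all measured transcripts were lower and 4.74% higher. Transcripts of a gene share exons and reads, so these 20 stand for 3 genes.

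Start regions of the 3 lower genes are shown, as sequence at or near the start of 1 coding transcript of each. Other transcripts of these genes start elsewhere and were lower too. They are RefSeq windows on GRCm38.p6 from 250 bases before to 50 bases after an annotated start, taken at the start nearest to that of the longest coding transcript. The Bcl2l1 window is chr2:152830668-152830967 on the minus strand, whose start lies 51 bases from that of Bcl2l1-202. The window ends just before Bcl2l1-202 begins, at 152830666, and holds none of its bases. Bcl2l1-201 begins at 152831728, outside the window, and its start was not searched. The Bbc3 window is chr7:16309333-16309632 on the plus strand, 33 bases from the start of Bbc3-201. The Bmf window is chr2:118549637-118549936 on the minus strand, 1 base from the start of Bmf-201. Capitals mark matches to any of 6 motifs searched on both strands, with overlaps allowed.
Bcl2l1: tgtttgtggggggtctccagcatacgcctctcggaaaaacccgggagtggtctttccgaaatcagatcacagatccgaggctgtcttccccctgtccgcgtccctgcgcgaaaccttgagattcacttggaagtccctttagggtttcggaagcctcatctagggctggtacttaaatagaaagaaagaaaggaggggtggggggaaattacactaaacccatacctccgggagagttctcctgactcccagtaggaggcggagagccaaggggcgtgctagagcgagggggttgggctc
Bbc3: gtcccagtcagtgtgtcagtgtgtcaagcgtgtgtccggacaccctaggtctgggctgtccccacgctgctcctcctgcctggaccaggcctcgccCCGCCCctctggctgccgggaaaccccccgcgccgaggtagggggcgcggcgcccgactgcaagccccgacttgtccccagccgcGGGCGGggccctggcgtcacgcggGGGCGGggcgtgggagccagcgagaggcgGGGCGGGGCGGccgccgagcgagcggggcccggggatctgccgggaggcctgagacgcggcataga
Bmf: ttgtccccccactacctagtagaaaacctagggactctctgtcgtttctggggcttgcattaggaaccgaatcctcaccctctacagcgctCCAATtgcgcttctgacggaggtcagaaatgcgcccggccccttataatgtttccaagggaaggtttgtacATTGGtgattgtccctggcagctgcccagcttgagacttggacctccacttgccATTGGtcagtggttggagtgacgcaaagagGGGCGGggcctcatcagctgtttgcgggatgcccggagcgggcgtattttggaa

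The motifs were the SP1 box GGGCGG, the CCAAT box, the TATA box TATAAA, the STAT motif TTCNNNGAA, the FOXO motif GTAAACA and the MYC-type E-box CACGTG, where N is any base. The Bbc3 window held 5 SP1 boxes and the Bmf window 1 SP1 box and 3 CCAAT boxes, and the Bcl2l1 window held no match. Of all 32851 RefSeq start windows, 35.7% held an SP1 box, 37.4% a CCAAT box, 13.6% a TATA box, 8.30% a STAT motif, 3.65% a FOXO motif and 7.15% a MYC-type E-box. No motif of the 6 was common to the 3 windows. Among members that were not lower, the SP1 boxes numbered 7 for Bcl2, 3 each for Bax and Bid, 1 each for Mcl1 and Bcl2l2 and 0 for Bak1, and the Bax window also held 2 MYC-type E-boxes. Bbc3 and Bcl2 had the highest share of G and C, 76.0% each, against 55.7% for Bcl2l1, 55.3% for Bmf and a median of 52.7% over all windows. A match is a run of letters and not a shown binding site.

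The order of the members changed with the library, and with the transcripts that stand for the genes. The transcript of highest mean RPKM is used first. In Δ/Δ the order was Mcl1, Bax, Bak1, Bid, Bcl2l2, Bmf, Bcl2l1, Bbc3, Bcl2 and Pmaip1. In C/C it was Mcl1, Bax, Bcl2l1, Bmf, Bbc3, Bak1, Bid, Bcl2l2, Bcl2 and Pmaip1. Bcl2l1 was thus 7th in Δ/Δ and 3rd in C/C. Counting intervals of neighbours overlapped for Bcl2l2 with Bmf, Bmf with Bcl2l1 and Bcl2l1 with Bbc3 in Δ/Δ, and for Bmf with Bbc3 in C/C. The order within these pairs is thus not resolved on these transcripts. The ends of the order, Mcl1 and Bax at the top and Bcl2 and Pmaip1 at the bottom, were the same in both libraries. On the longest coding transcripts Bax stood above Mcl1 in both libraries, and Bcl2l2 measured 6.92 RPKM in Δ/Δ and 4.95 RPKM in C/C, above Bcl2 in Δ/Δ and below it in C/C. The middle of the order changed as well. In Δ/Δ, Bbc3 (10.2 RPKM), Bmf (9.38 RPKM) and Bcl2l1 (8.78 RPKM) then stood above Bcl2l2. In C/C, Bbc3 (39.7 RPKM) stood above Bmf (31.8 RPKM).

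Summed over the members of each role, levels were as follows. The 4 survival genes summed to 139.9 RPKM in Δ/Δ and 244 RPKM in C/C, a ratio of 0.573. The 4 BH3-only genes summed to 48.6 RPKM in Δ/Δ and 107 RPKM in C/C, a ratio of 0.452. With Bcl2l11, the BH3-only gene of BIM that is not among the 10, the sum was 143 RPKM in Δ/Δ and 127 RPKM in C/C, a ratio of 1.12, and on the longest coding transcripts it was 91.8 RPKM in Δ/Δ and 97.8 RPKM in C/C, a ratio of 0.939. The 2 effectors summed to 109 RPKM in Δ/Δ and 181 RPKM in C/C, a ratio of 0.602. Mcl1 and Bax make up most of the survival and effector sums. With the longest coding transcripts the ratios of the sums were 0.629 for survival, 0.492 for BH3-only and 0.591 for effector genes, and the survival sum then had a smaller difference than the effector sum.

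Within a library, levels of members can be set against each other. On the longest coding transcripts, the ratio of Bcl2l1 to Bax was 0.112 in Δ/Δ and 0.277 in C/C, and that of Bcl2l1 to Bak1 was 0.353 in Δ/Δ and 1.66 in C/C. Bcl2l1 and Bbc3 were lower by similar factors, so their ratio was 0.860 in Δ/Δ and 1.05 in C/C. The ratio of Mcl1 to Bbc3 was higher in Δ/Δ, at 6.08 in Δ/Δ and 1.89 in C/C, and so was that of Mcl1 to Bmf, at 6.61 in Δ/Δ and 2.36 in C/C. That of Mcl1 to Bid was 2.81 in Δ/Δ and 5.30 in C/C, and that of Mcl1 to Bak1 was 2.49 in Δ/Δ and 2.99 in C/C. The largest shift of the 24 pairs was that of Bcl2l1 to Bid, at 0.398 in Δ/Δ and 2.94 in C/C. Bcl2 to Bax was nearly equal, at 0.0695 in Δ/Δ and 0.0698 in C/C. The survival genes did not all go the same way against the effectors. Mcl1 to Bax was higher in Δ/Δ, at 0.788 in Δ/Δ and 0.50004 in C/C. Bcl2l2 to Bax was higher too, at 0.0879 in Δ/Δ and 0.0329 in C/C. So was Bcl2l2 to Bak1, at 0.278 in Δ/Δ and 0.197 in C/C. Bcl2 to Bak1 was lower in Δ/Δ, at 0.220 in Δ/Δ and 0.417 in C/C. These are ratios of RNA and say nothing of protein.

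**Figure D3:**
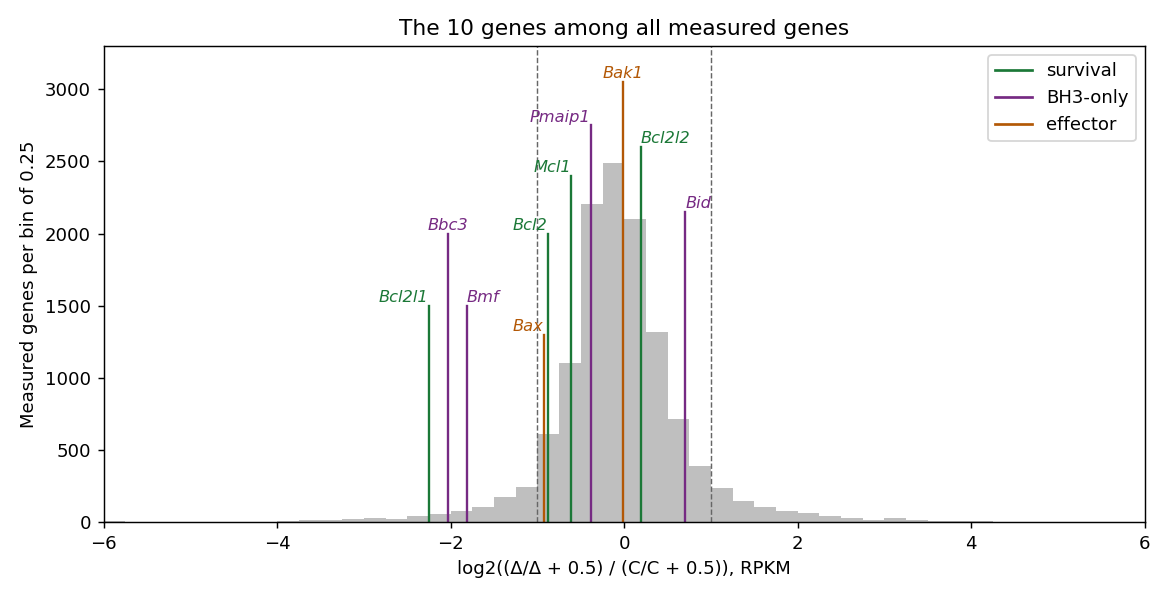
Grey bars count the 12556 measured genes by log2 ratio of Δ/Δ to C/C with 0.5 RPKM added to each, coloured lines mark the 10 members by role (their height has no meaning), and dashed lines mark the 2-fold rule. Bcl2l1, Bbc3 and Bmf lie left of the rule at -2.26, -2.04 and -1.82, and Bax and Bcl2 lie just inside it at -0.93 and -0.88.

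Reads along a gene could be divided where the exons of a listed transcript contain those of another. The reads of the shorter model were then subtracted from those of the longer one, so a read that reaches over the boundary stays with the shorter model. This could be done for 5 members and for 3111 genes in all, with at least 200 reads in each part and library. For Mcl1 the parts disagreed. Over the 858 bases of Mcl1-202 the density was 109.7 RPKM in Δ/Δ and 168 RPKM in C/C. Over the remaining 2560 bases of Mcl1-201, of which 2353 are 3′ untranslated region (GRCm38 chromosome 3, plus strand), the density was 46.0 RPKM in Δ/Δ and 44.1 RPKM in C/C, a ratio of 1.04 (interval 1.02 to 1.07). The coding part was thus sparser in Δ/Δ and the 3′ part was not. The log2 difference between the ratios of the parts was 0.68, and 97.7% of the 3111 genes had a lower one. Among 445 genes whose division runs, as here, between coding sequence and 3′ untranslated region, the median was 0.04, the middle 90% ran from -0.35 to 0.67, and 21 genes lay above Mcl1.

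The other members divided more evenly. In Bcl2l1 the ratio was 0.245 over the bases of Bcl2l1-204, mostly the first coding exon, and 0.202 over the rest of Bcl2l1-202, mostly 3′ untranslated region. In Bmf the ratios were 0.290 over Bmf-207 and 0.295 over the rest of Bmf-201, and in Bak1 both were 0.990. In Bcl2l2 the ratio was 1.15 over Bcl2l2-204 and 1.48 over the rest of Bcl2l2-201. Of the bases of Bcl2l2-204, 328 of 498 are shared with Gm20521, and of the rest 266 of 3011. The part that is mostly the gene's own thus had the higher ratio, with 7.04 RPKM in Δ/Δ and 4.77 RPKM in C/C.

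**Figure D4:**
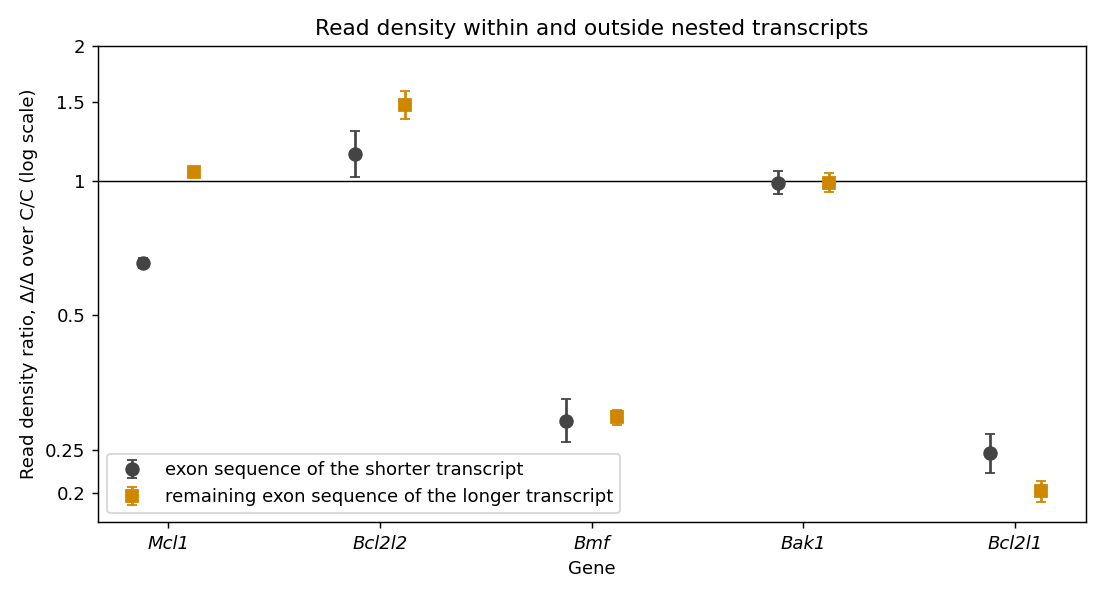
For 5 genes, the ratio of read density in Δ/Δ to that in C/C (log axis) over the exon sequence of a shorter transcript (circles) and over the remaining exon sequence of a longer one (squares), with 95% counting intervals. Mcl1 has 0.654 and 1.04, whereas the parts of Bmf and of Bak1 coincide.

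Other genes of the pathway were read from 4 lists. Of 16 further BCL2 family members, 10 were measured, with a median log2 ratio of -0.56. Of these 10, 1 was higher and 2 were lower, where 6.28% of all measured genes were higher and 6.66% lower. The higher one was Bcl2l11, which encodes the BH3-only protein BIM, at 94.4 RPKM in Δ/Δ and 19.8 RPKM in C/C. These values are for Bcl2l11-204, a model of 672 bases, and the level depends on the model. The lower ones were Bok, an effector relative, at 2.54 RPKM in Δ/Δ and 8.22 RPKM in C/C, and the BH3-only gene Bik, at 0.132 RPKM in Δ/Δ and 1.63 RPKM in C/C. Bcl2l11, Bcl2l1 and Bmf all lie on mouse chromosome 2, and the direction of Bcl2l11 was opposite to that of the other 2. The survival gene Bcl2a1b, chosen after its value was seen, measured 1.46 RPKM in Δ/Δ and 0.646 RPKM in C/C, and has near-identical copies. Its ratio was 2.26 in RPKM, but with 0.5 RPKM added it is short of the rule.

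Of 18 genes of the apoptosome, the caspases and their inhibitors, all measured, 1 was higher and 0 were lower, with a median of -0.13, where 6.28% of all measured genes were higher and 6.66% lower. The higher gene was Birc2, which encodes the ubiquitin ligase cIAP1, at 35.5 RPKM in Δ/Δ and 14.9 RPKM in C/C, 2.38-fold more. Nearest to the rule, and chosen after their values were seen, were Cycs, which encodes cytochrome c (112 RPKM in Δ/Δ, 59.3 RPKM in C/C), and Birc3, which encodes cIAP2 (84.2 RPKM in Δ/Δ, 46.8 RPKM in C/C). Of 9 measured death receptor genes, none passed the rule, and the median was 0.41. The furthest from 0 were the receptor gene Fas (2.92 RPKM in Δ/Δ, 1.33 RPKM in C/C), the adaptor gene Traf2 (9.37 RPKM in Δ/Δ, 14.7 RPKM in C/C) and the caspase-8 inhibitor gene Cflar (19.9 RPKM in Δ/Δ, 12.9 RPKM in C/C). Fas was 2.20-fold higher in RPKM (interval 1.83 to 2.64), and only the added 0.5 RPKM keeps it short of the rule. Of 17 regulators and partners of the family none passed either, with a median of 0.03. The furthest from 0 were Usp9x, which removes ubiquitin from MCL-1 (29.8 RPKM in Δ/Δ, 18.4 RPKM in C/C), the p53 inhibitor gene Mdm4 (33.8 RPKM in Δ/Δ, 21.9 RPKM in C/C) and the calcium channel gene Itpr3 (17.2 RPKM in Δ/Δ, 26.3 RPKM in C/C). Trp53 measured 90.3 RPKM in Δ/Δ and 103 RPKM in C/C, and Dynll2, the BMF partner, 5.58 RPKM in Δ/Δ and 5.71 RPKM in C/C, both chosen after their values were seen.

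**Figure D5:**
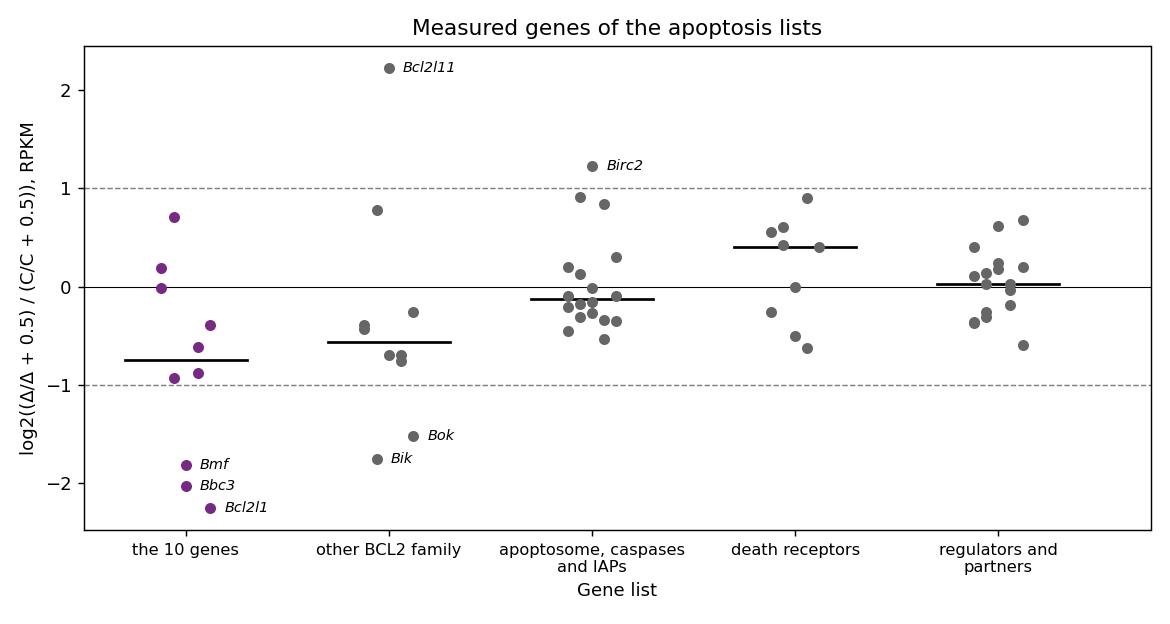
Each point is the log2 ratio of Δ/Δ to C/C, with 0.5 RPKM added to each, of a measured gene of the 10 members or of 4 pathway lists, short bars are medians, and dashed lines mark the 2-fold rule. The medians are -0.75 for the 10 members, -0.56, -0.13, 0.41 and 0.03 for the lists from left to right, and named genes passed the rule.

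Markers of cell types differed between the same libraries. By the 2-fold rule used for the counts here, 6.28% of all measured genes were higher and 6.66% lower. Pro-B markers were present in both, with 4 of 13 lower in Δ/Δ and a summed level of 3604 RPKM in Δ/Δ and 5049 RPKM in C/C. Of 9 measured myeloid markers 7 were higher, and the 12 listed summed to 246 RPKM in Δ/Δ and 26.6 RPKM in C/C, where Elane and Mpo were listed at 0. Of 7 measured erythroid and megakaryocyte markers 6 were higher, and the 11 listed summed to 77.8 RPKM in Δ/Δ and 9.31 RPKM in C/C. All 5 measured dendritic markers were higher (109 RPKM in Δ/Δ and 45.4 RPKM in C/C over 8 listed), and of 4 measured T lineage markers 2 were higher and 1 lower (96.5 RPKM in Δ/Δ and 101.7 RPKM in C/C over 8 listed), with Cd3e listed at 0 in C/C. Bst2 alone made up most of the dendritic sums, at 95.7 RPKM in Δ/Δ and 43.8 RPKM in C/C. Thy1 (55.7 RPKM in Δ/Δ, 23.7 RPKM in C/C) and Lat (36.3 RPKM in Δ/Δ, 75.7 RPKM in C/C) made up most of the T lineage sums. Their directions were opposite. The part of these cell types in the values of the 10 members was not tested.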

How the data were processed

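Total RNA of 2 cultures, freed of ribosomal RNA, was sequenced in paired reads of 101 bases, per the labels' protocols. The authors deposited 1 RPKM value for each of 93615 Ensembl transcripts and library, rounded to 3 decimals. Builds mm9 and mm10 and the tools bedtools and TopHat2 2.0.9 appear in the submitters' processing notes. For this table, the build, annotation, strand setting and treatment of shared reads were not given in the sources used here. Columns headed Del and Wt were read as Δ/Δ and C/C. The kit named in the labels does not mark strand, so antisense reads cannot be told apart.

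Identifiers were matched to GENCODE M21 (GRCm38), which named 89571 transcripts (95.7%). For the 10 genes that annotation has 48 transcripts, and the 11 that are not rows of the table are not analysed here. RPKM times transcript length was a whole multiple of a step in each library, within 0.1 read for 95.9% of 4058 low values in Δ/Δ and 96.6% of 3708 in C/C, for transcripts of 100 to 800 bases. The steps gave the depths and the reads. Intervals of a ratio are exact for Poisson rates, with 2 reads taken as 1 fragment. The steps were tested on simulated data. Promoter sequences are from RefSeq, which matched 9 of the 10 genes. The members and the gene lists were chosen with earlier results of these data known. Named genes are all members, list genes past the rule and otherwise the 3 of a list furthest from 0. Python 3.11.15, NumPy 2.4.6, pandas 2.3.3, SciPy 1.17.1 and matplotlib 3.10.9 were used. The 10 alternatives tried are in the closing section.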

Additional observations from a re-analysis of the deposited data

How the results depend on the processing

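Bcl2l1, Bbc3 and Bmf were the 3 lower members, with 0 higher, under 8 of the 10 alternatives: added values of 0.1 and 1 RPKM, centring on the median, a common RPKM sum, no filter, a filter of 5 RPKM, the longest coding transcript and the sum over transcripts. A 1.5-fold rule gave 6 lower members and 1 higher, and a 4-fold rule left Bbc3 and Bcl2l1. The log2 ratio of Bcl2l1 ran from -2.30 to -2.16, that of Bbc3 from -2.08 to -1.91, that of Bmf from -1.85 to -1.71 and that of Mcl1 from -0.61 to -0.27, the last with its longer transcript. Over all measured genes the 1.5-fold rule gave 1583 higher and 2101 lower, the 4-fold rule 220 higher and 234 lower, and the filter of 5 RPKM 452 higher and 510 lower, which tests fewer genes. The 4 pathway lists hold 54 measured genes, of which 2 were higher and 2 lower. Of all measured genes 6.28% were higher and 6.66% lower. The list counts became 9 and 7 at 1.5-fold, where 12.6% of all measured genes were higher and 16.7% lower. At 4-fold they became 1 and 0, where 1.75% of all measured genes were higher and 1.86% lower. The lists gave 4 higher genes with 0.1 RPKM added, and 1 lower gene of 48 at 5 RPKM. No paired analysis was possible because each genotype has 1 library, and for the same reason no library could be left out. Counting error is small for most members, and the missing replicates limit every value.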
